A study of Homo sapiens and Mus musculus with 12 samples.

Results

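The genes described here are 38 genes of DNA replication and S phase, taken by symbol from a list that was drawn up for this purpose. All 38 were found in the table of the human colon cancer line RKO, among 15590 genes, and under the same names in title case in the table of mouse colon, among 17383. They fall by role into 10 licensing genes, 6 helicase activation genes, 11 fork genes, 4 nucleotide synthesis genes, 3 S phase entry genes, 3 genes of chromatin assembly and histone mRNA, and the uracil repair gene UNG. The study measured polyadenylated RNA after loss of the zinc finger protein ZNF280C, called Zfp280c in the mouse. Both RKO groups carried an shRNA against ZNF280C under a tetracycline-inducible promoter. One group, of 3 libraries, was given 1 ug/ml doxycycline, and the other, also of 3 libraries, was not, with both harvested at 72 h. The labels name no line with another shRNA, so the effect of doxycycline itself and that of the shRNA cannot be told apart. The mouse libraries came from colon tissue of C57BL/6J mice at 12 weeks of age, 3 with a Zfp280c knock-out and 3 wild-type. The labels do not say whether libraries of a group came from separate cultures, nor how the knock-out was made, so the p-values measure only the spread between these libraries.

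A chromosome is copied from many origins. In G1 the origin recognition complex, CDC6 and CDT1 load the MCM2 to MCM7 helicase onto DNA, a step called licensing. On entry into S phase, CDC45 and the GINS complex join the helicase and turn it on, and the fork enzymes then copy both strands from nucleotides made by ribonucleotide reductase, thymidylate synthase and thymidine kinase. Many of these genes are transcribed together before S phase by E2F factors, which cyclin E and its kinase help to release from the retinoblastoma protein. In the colon, dividing cells lie in the lower part of the crypts, so whole tissue holds them beside a majority of non-dividing cells. In bulk RNA, fewer cells in S phase and less of a transcript per cell cannot be told apart.

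The promoters of 4 members are printed here because the results turn on these genes or because they show the E2F words described below. CDC45 and POLA1 passed the test in RKO cells, RRM1 is among the nucleotide synthesis genes with the lowest p, and MCM6 was chosen after the matches were seen. Each line holds the 250 bases before the transcription start, 5′ to 3′ on the gene's strand, from RefSeq on GRCh38.p14. Capitals mark every E2F word (TTTGGCGC, TTTCCCGC, TTTCGCGC or TTTGCCGC) and every CCAAT box (CCAAT), on either strand.
MCM6: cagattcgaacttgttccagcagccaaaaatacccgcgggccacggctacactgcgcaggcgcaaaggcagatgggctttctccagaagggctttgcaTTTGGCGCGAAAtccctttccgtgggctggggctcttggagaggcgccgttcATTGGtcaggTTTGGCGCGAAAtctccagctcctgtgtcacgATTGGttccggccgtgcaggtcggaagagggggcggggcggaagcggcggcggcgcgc
CDC45: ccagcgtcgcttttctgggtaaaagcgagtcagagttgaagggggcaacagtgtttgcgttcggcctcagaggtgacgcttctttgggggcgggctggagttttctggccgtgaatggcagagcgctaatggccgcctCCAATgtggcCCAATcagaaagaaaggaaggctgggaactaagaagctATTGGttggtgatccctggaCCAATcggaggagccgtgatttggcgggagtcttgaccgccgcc
POLA1: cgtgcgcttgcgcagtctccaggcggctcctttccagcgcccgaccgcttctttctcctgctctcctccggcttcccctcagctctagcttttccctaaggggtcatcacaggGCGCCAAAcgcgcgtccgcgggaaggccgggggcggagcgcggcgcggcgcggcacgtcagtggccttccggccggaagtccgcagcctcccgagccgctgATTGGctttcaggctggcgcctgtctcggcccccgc
RRM1: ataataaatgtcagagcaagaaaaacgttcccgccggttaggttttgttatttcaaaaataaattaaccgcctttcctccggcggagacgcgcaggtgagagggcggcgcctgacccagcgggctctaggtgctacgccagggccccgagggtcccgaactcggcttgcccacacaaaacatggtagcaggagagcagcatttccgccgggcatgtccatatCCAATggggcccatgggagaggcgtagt
These stretches lie at chr2:135876444-135876693 on the minus strand for MCM6 and on the plus strand for the others, at chr22:19479670-19479919 for CDC45, chrX:24693668-24693917 for POLA1 and chr11:4094435-4094684 for RRM1. In MCM6 the same longer run occurs at both places, and each run holds an E2F word on either strand. POLA1 holds 1 E2F word, on the strand opposite to the gene, from base -137 to -130 counted from the start. CDC45 holds 4 CCAAT boxes and no E2F word in this window, and RRM1 holds 1 CCAAT box and no E2F word. CDC45 does hold TTTGGCGG near the end of its stretch. That word differs from the E2F word TTTGGCGC in its last base, was not searched for and is not in capitals here. RRM1 does hold TTCCCGCC, from base -223 to -216, a word that is not among the 4 E2F words and is not in capitals here.

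Of the 38 members, 34 had a promoter in the RefSeq table, and MCM4, MCM5, GINS4 and CCNE2 did not. The window searched ran from 250 bases before to 50 bases after the first start listed for a gene. An E2F word was present in 18 of the 34 (52.9%), against 3.3% of 27305 promoters of the same length. It was present in 6 of 8 licensing genes, 3 of 5 helicase activation genes and 7 of 11 fork genes, and in 1 of 4 nucleotide synthesis genes, which was TYMS. Of the 70 other replication pathway genes with a promoter, 15 (21.4%) held one. Another word searched, TTCCCGCC, was present in 10 of the 34 (29.4%, against 3.2% of all promoters). RRM1, PRIM1, RFC4 and CHAF1A hold it and none of the 4 E2F words. The CCAAT box was present in 19 of the 34 (55.9%, against 35.7% of all promoters). The CHR word TTTGAA, known from promoters of mitotic genes, was found in 1 member (2.9%, against 15.4%), RRM1, and in 18 of 27 G2 and mitosis genes (66.7%). A match describes these letters and is not a binding site.

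In RKO cells given doxycycline, replication transcripts were slightly lower almost across the whole list. The log2 fold change, doxycycline minus untreated, was negative in 37 of the 38 members, against 55.1% of all genes, and its median was -0.13, against -0.01 over all genes. CDC45, which turns on the helicase, POLA1, the catalytic subunit of DNA polymerase alpha, and TYMS, thymidylate synthase, fell (adjusted p under 0.05 over all genes, limma), to 82.7%, 83.4% and 84.9% of untreated. These 3 of 38 compare with 0.757% of all genes called lower, and 0 members were called higher, against 0.385%. In 23 members the unadjusted p was under 0.05 with a lower mean, against 10.2% of all genes. In the same 23 all 3 doxycycline libraries lay below all 3 untreated ones, against 13.3% of all genes. Group means of the members ran from 82.7% to 103% of untreated, so each difference was small.

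The targeted gene was checked first. The signal of ZNF280C was 123, 99.6 and 79.1 with doxycycline and 192, 172 and 227 without, which is 51.0% of untreated (log2 fold change -0.98 ± 0.15 SE, adjusted p = 0.0276, limma). The groups did not overlap (exact two-sided permutation p = 0.1, the smallest that 3 against 3 allows). Signal is the deposited normalized value, which carries no transcript length, so levels of different genes are not compared in RKO. Columns summed to between 9050161 and 9195211, and read depth is unknown. Some libraries of opposite groups share exactly equal values: doxycycline replicate 2 and untreated replicate 2 in 310 genes, and doxycycline replicate 3 and untreated replicate 1 in 526. With these pairs as a block, 0 genes (0%) and 0 members were called by limma. The table lists 5 of 8 epithelial markers (summed signal 2037 to 2094 with doxycycline, 1929 to 1975 without), has no entry for KRT19, CDH1 and CLDN4, and has none for any lymphocyte, endothelial or adipocyte marker. It lists 2 of 6 smooth muscle markers (5319 to 5698 with doxycycline, 4885 to 5149 without). Germinal centre B cell markers (3 of 5) summed to 332 to 387 and 346 to 401, and 1 of 6 fibroblast markers stood at 2.69 to 8.01 and 1.76 to 5.06. Of colon stem cell and differentiated colonocyte markers 1 of 6 and 1 of 8 are listed.

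**Figure D1:**
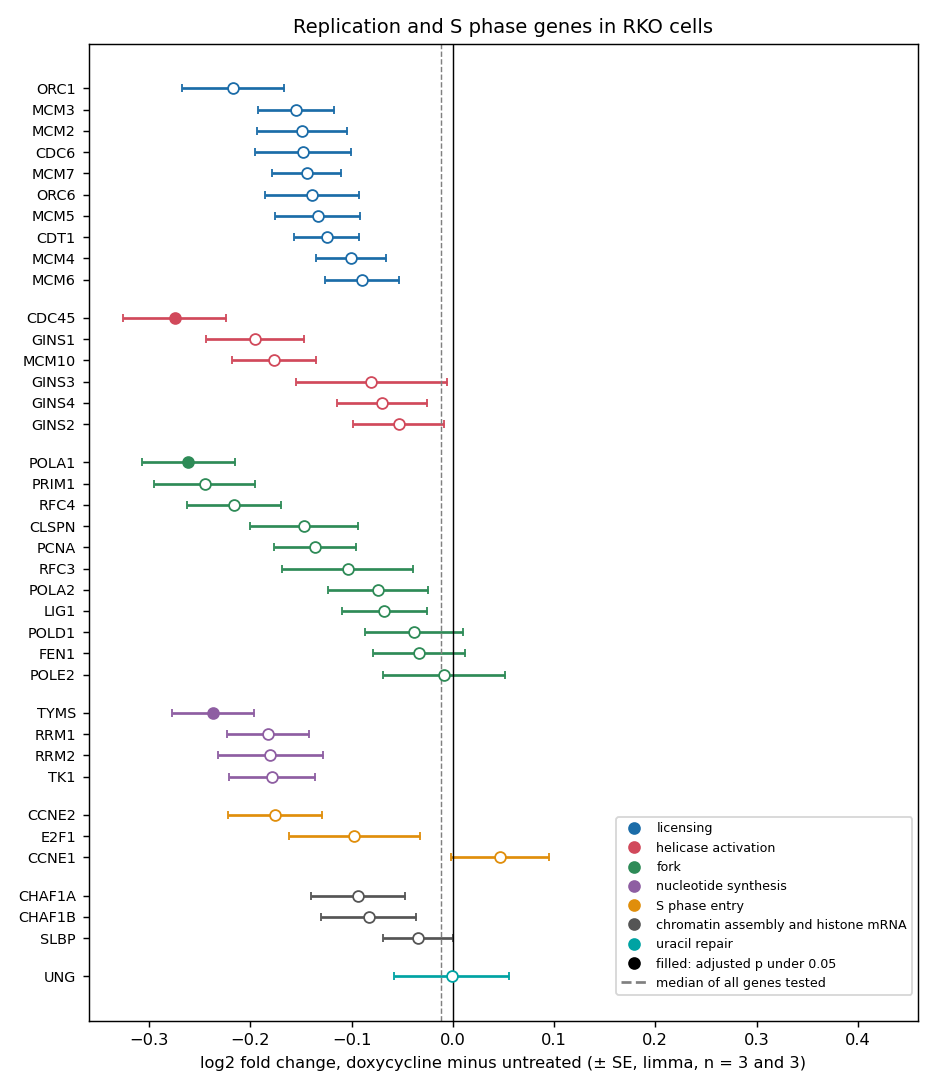
Log2 fold change in RKO cells, doxycycline minus untreated, for the 38 members by role (points, with SE bars from limma; n = 3 and 3; filled where adjusted p is under 0.05; dashed line, median of all genes). All points but CCNE1 lie below 0, and CDC45, POLA1 and TYMS are filled.

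All 10 licensing genes were lower in every doxycycline library than in any untreated one, by small amounts (log2 fold changes -0.22 to -0.09, median -0.14), and none of the 10 was called in limma, though each had an unadjusted p under 0.05. Of all genes, 13.3% were lower without overlap and 10.2% were lower at an unadjusted p under 0.05 in limma. Most of the G2 and mitosis genes described below were also lower without overlap. ORC1, the large ATPase subunit of the origin recognition complex, stood at 294, 284 and 300.1 signal with doxycycline and at 354, 324 and 344 without. That is a log2 fold change of -0.22 ± 0.05 (SE, adjusted p = 0.0698, limma), the lowest of the licensing genes. MCM7, a helicase subunit, stood at 4318, 4158 and 4398 with doxycycline and at 4825, 4677 and 4724 without. Its spread within groups was small, with an SD of 122 and 75.3 (n = 3 each), and its log2 fold change was -0.14 ± 0.03 (adjusted p = 0.0741, limma). MCM3, another subunit of the same ring, stood at 952, 1007 and 1008 against 1114, 1108 and 1081 (-0.16 ± 0.04, adjusted p = 0.0786, limma). The 6 MCM subunits lay close together, from -0.16 in MCM3 to -0.09 in MCM6, whose 3 untreated libraries were nearly equal (1336, 1334 and 1333) and whose doxycycline libraries stood at 1292, 1206 and 1266.

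Helicase activation genes divided into a lower and a less changed set. CDC45 fell, with 387, 351 and 391 signal under doxycycline and 458, 462 and 445 without (376 ± 22.0 against 455 ± 8.84, SD, n = 3 each). Its log2 fold change of -0.27 ± 0.05 was the lowest of all 38 members (adjusted p = 0.0422, limma). All doxycycline libraries lay below all untreated ones. MCM10, which helps the loaded helicase to start, stood at 792, 733 and 772 against 888, 844 and 864 (-0.18 ± 0.04, adjusted p = 0.0741, limma). GINS1, a GINS subunit, stood at 505, 538 and 510.1 against 625, 564 and 591 (-0.20 ± 0.05, adjusted p = 0.0822, limma). In both genes the groups stayed apart, though neither passed. The other GINS subunits, GINS2, GINS3 and GINS4, lay at -0.05, -0.08 and -0.07, and in all of them the groups overlapped.

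Among the 11 fork genes, POLA1 and PRIM1, whose products start new strands, lay lowest. POLA1 fell, with 371, 352 and 359.5 signal under doxycycline and 415, 447 and 436 without. All 3 treated libraries lay more than an SD (16.0 untreated, 9.47 treated, n = 3 each) below the lowest untreated one, and the log2 fold change was -0.26 ± 0.05 (adjusted p = 0.0382, limma). PRIM1, the primase subunit that lays the RNA primer, stood at 328, 300.5 and 298 against 364, 363 and 371 (-0.25 ± 0.05) and just missed the threshold (adjusted p = 0.0502, limma). PRIM1 passed, as a member called beside the 3, with a minimum mean of 10 (adjusted p = 0.0481) and over the genes with a GC content without correction (adjusted p = 0.0465), and its adjusted p in limma ran from 0.0465 to 0.239 over the settings tried. RFC4, a subunit of the clamp loader, stood at 335, 327 and 351 against 387, 403 and 387 (-0.22 ± 0.05, adjusted p = 0.0569, limma). CLSPN, a fork checkpoint protein, and PCNA, the sliding clamp, lay at -0.15 and -0.14 with groups apart. The remaining 6 did not separate by group: RFC3, POLA2, LIG1, POLD1, FEN1 and POLE2 lay from -0.10 to -0.01. POLA2 is a partner of POLA1 in the polymerase alpha complex and stood at 412, 418 and 458 against 459, 449 and 446, with doxycycline replicate 3 among the untreated values. POLE2, a subunit of the leading strand polymerase, stood at 162, 148 and 162 against 154, 157 and 162.

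Among the members, nucleotide synthesis had the lowest median of any role, -0.18, and its 4 genes were all apart between groups. Over all genes, 13.3% were lower without overlap. The 15 other nucleotide synthesis genes tested differed less. Their mean lay -0.05, -0.10 and -0.04 from the untreated mean in doxycycline replicates 1 to 3, against -0.20, -0.25 and -0.13 for the 4 members. TYMS fell, with 846, 876 and 921 signal under doxycycline and 1052, 1034 and 1028 without (-0.24 ± 0.04, adjusted p = 0.0345, limma). All doxycycline libraries lay below all untreated ones. ENOSF1 overlaps TYMS on the other strand, and whether counting used strand is not given in the sources used here, so reads of the pair cannot be told apart. ENOSF1 itself stood at 795, 791 and 881 against 815, 908 and 869 with overlapping groups (-0.07 ± 0.05, adjusted p = 0.566, limma). RRM1, the large subunit of ribonucleotide reductase, stood at 1757, 1665 and 1831 against 1953, 2019.8 and 1984 (-0.18 ± 0.04, adjusted p = 0.0624, limma). RRM2, its S phase subunit, stood at 2981, 2886 and 3361 against 3437, 3459 and 3541 (-0.18 ± 0.05, adjusted p = 0.120, limma), with doxycycline replicate 3 close to the untreated values. TK1, thymidine kinase of the salvage path, stood at 656, 611 and 629 against 738, 703 and 704 (-0.18 ± 0.04, adjusted p = 0.0741, limma).

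**Figure D2:**
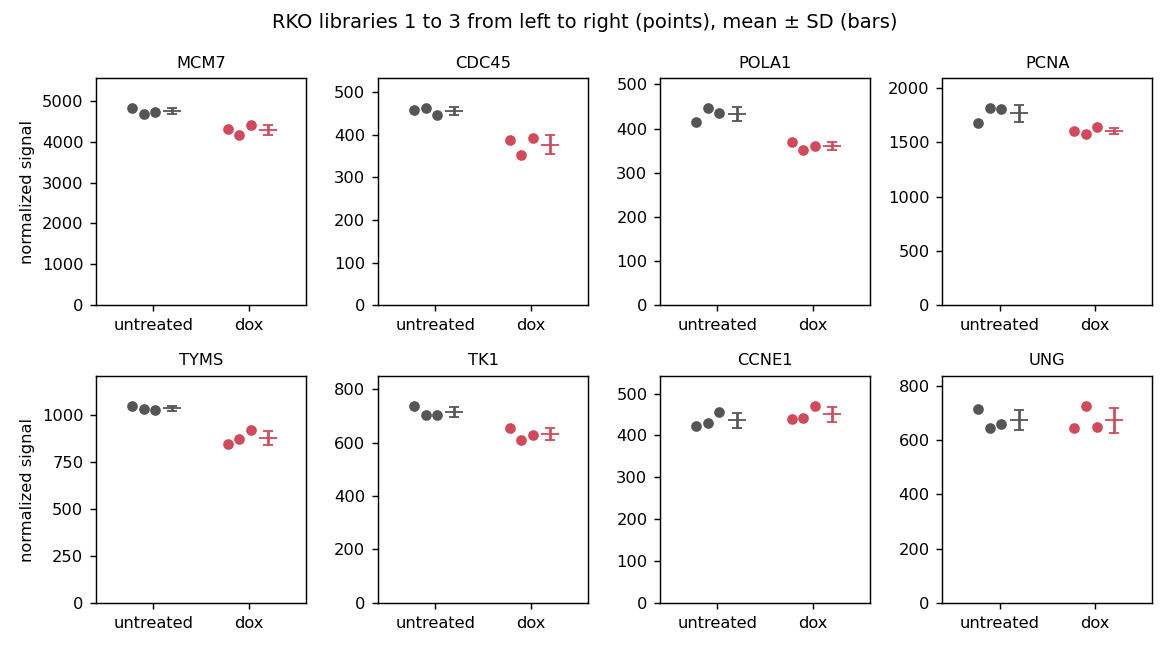
Normalized signal of 8 members in each RKO library (points, replicates 1 to 3 from left to right) with mean ± SD (bars, n = 3), untreated in grey and doxycycline in red, each axis from 0. In MCM7, CDC45, POLA1, PCNA, TYMS and TK1 the groups are apart, and in CCNE1 and UNG they overlap.

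In the remaining roles 0 members passed. Of the S phase entry genes, CCNE2, a cyclin E, stood at 513, 490.0 and 525 against 584, 548 and 594 (-0.18 ± 0.05, adjusted p = 0.0984, limma), with groups apart. CCNE1, the other cyclin E, was the only member with a positive value, at 439, 441 and 471 against 423, 429 and 456 (0.05 ± 0.05, adjusted p = 0.696, limma), with groups that overlap. E2F1, an E2F activator, stood at 467, 495 and 557 against 511, 551 and 561 (-0.10 ± 0.07, adjusted p = 0.501, limma), also overlapping. When 1 library was left out, E2F1 ran from -0.17 without doxycycline replicate 3 to -0.041 without replicate 1, and CCNE1 from 0.0139 without doxycycline replicate 3 to 0.0791 without untreated replicate 3. CHAF1A and CHAF1B, subunits of the chromatin assembly factor that places histones behind the fork, lay at -0.09 and -0.08, and SLBP, which binds histone mRNA, at -0.03. All 3 overlapped between groups, at adjusted p = 0.344, 0.412 and 0.680 in limma. UNG, which removes uracil from DNA, showed the smallest difference, with 645, 726 and 649 against 715, 646 and 660.2 (-0.0012 ± 0.06, adjusted p = 0.995, limma).

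Set side by side, the median log2 fold change was -0.14 for licensing, -0.10 for the fork and -0.18 for nucleotide synthesis. Over the fits that left out 1 library these medians ran from -0.16 to -0.12, from -0.14 to -0.08 and from -0.23 to -0.15. The range of licensing thus overlapped both that of the fork and that of nucleotide synthesis, and the difference between roles was not tested. By library, the mean of the licensing genes lay -0.14, -0.17 and -0.12 from the untreated mean in doxycycline replicates 1 to 3. For the fork genes these values were -0.12, -0.15 and -0.09, and for nucleotide synthesis -0.20, -0.25 and -0.13. In these 3 roles doxycycline replicate 2 was lowest and replicate 3 nearest to the untreated libraries. Over all 38 members the means were -0.13, -0.16 and -0.09 with doxycycline and 0.01, -0.01 and 0.00 without. Licensing genes spanned -0.22 to -0.09, a narrower range than the -0.26 to -0.01 of the fork genes. The 18 members with an E2F word had a median of -0.13 with 2 called, and the 16 without one had a median of -0.16 with 1 called. Of all genes, 0.757% were called lower. Those 16 include RRM1, PRIM1, RFC4 and CHAF1A, which hold TTCCCGCC, and CDC45, which holds TTTGGCGG. The difference between these 2 sets was not tested.

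Fold changes in this table followed base composition. Over 13102 genes, a description since genes are no independent replicates, the fold change was higher at higher GC content of the longest transcript (Spearman 0.443), and over the 38 members the correlation was 0.304. The members' GC content had a median of 48.9% and ran from 36.9% to 65.0%, near the 48.3% of all genes. The 4696 genes between 44.0% and 54.3%, the members' quartiles, had a median log2 fold change of -0.01, and 56.5% of them were negative. With the trend removed from each library, 35 of 38 members were negative (49.8% of all genes), with a median of -0.12. TYMS (-0.23, adjusted p = 0.0382) and TK1 (-0.24, adjusted p = 0.0382) were then called lower with CDT1 (-0.20, adjusted p = 0.0375, limma), against 0.442% of 13118 genes. CDC45 (-0.28, adjusted p = 0.0506) and POLA1 (-0.21, adjusted p = 0.0583) no longer passed in limma. Over all settings tried, the adjusted p in limma ran from 0.0387 to 0.215 for CDC45, from 0.0353 to 0.215 for POLA1 and from 0.0309 to 0.204 for TYMS. CDT1 stood at 1659, 1681 and 1668 against 1835, 1789.9 and 1834 signal, and its GC content is among the highest of the members. Why fold changes followed GC content was not tested.

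**Figure D3:**
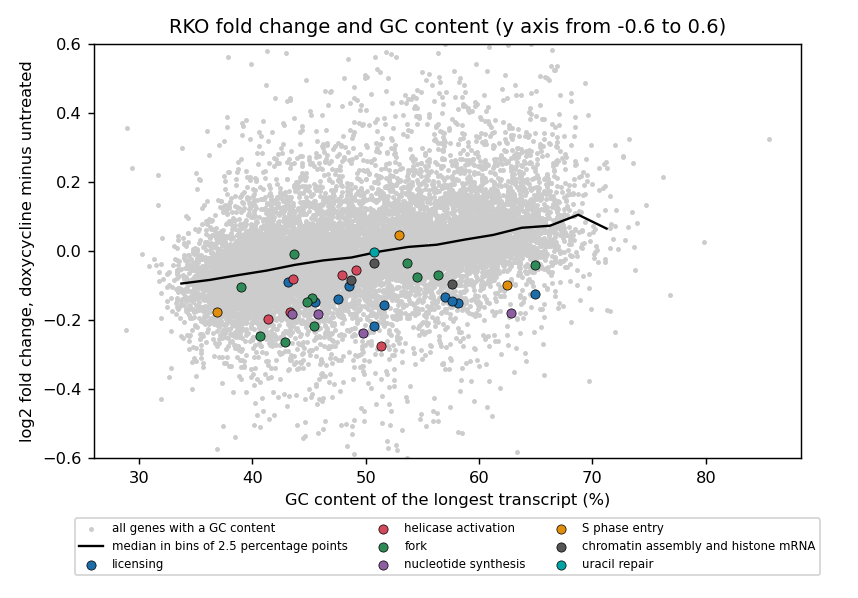
Log2 fold change in RKO cells against GC content of the longest transcript (%), with all genes in grey, their median per bin as a line and the 38 members coloured by role. Members from 36.9% to 65.0% GC lie mostly below the line, which rises with GC content.

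Other genes of the pathway were mostly on the lower side too. Of 85 such genes 83 were tested (PCLAF has no entry under that name, its older symbol KIAA0101 has, and RBL1 is listed more than once). Of the 83, 70 were negative (55.1% of all genes; median -0.08), 4 fell (0.757% of all genes) and 0 rose by the adjusted p of limma, and 32 were lower at an unadjusted p under 0.05 (10.2% of all genes). KIAA0101, a PCNA-binding factor, fell most, with 324, 302 and 311 signal against 390, 399 and 395 (-0.34 ± 0.05, adjusted p = 0.0244, limma). E2F2, an activator like E2F1, stood at 288, 313 and 312 against 368, 366 and 404 (-0.32 ± 0.06, adjusted p = 0.0397, limma). E2F7, a repressing member of the family, stood at 786, 765 and 802 against 916, 932 and 979 (-0.26 ± 0.04, adjusted p = 0.0276, limma), and RFC1, the large clamp loader subunit, fell by 0.18 ± 0.04 (adjusted p = 0.0487, limma). In these 4 genes the groups did not overlap, and with the GC trend removed RFC1 no longer passed (-0.12, adjusted p = 0.132, limma). When any 1 library was left out, 0 or 1 of the 83 passed. DBF4, a partner of the kinase that activates the helicase (-0.25), DCK, deoxycytidine kinase (-0.27), ORC3 (-0.16) and MMS22L (-0.19) had the lowest p of their roles and did not pass. The 32 G2 and mitosis genes, which act after S phase, were all negative (median -0.17), so values this low were not particular to replication genes. In limma 7 of the 32 fell (0.757% of all genes), and 3 with the GC trend removed (0.442%). With equal sums (0.43%) or median centring (0.378%) 3 were called, and with quantile normalization 2 (0.398%). When any 1 library was left out 0 or 1 passed, against 0.00641% to 0.0962% of all genes called lower. The 7 called with values as deposited were TPX2 (-0.25, adjusted p = 0.0152, limma), CCNA2 (-0.25, adjusted p = 0.0301, limma), PTTG1, NDC80, BIRC5, ANLN and MAD2L1. Of the dividing cell markers taken as examples, CCNB1 (-0.12, adjusted p = 0.263), MKI67 (-0.13, adjusted p = 0.181) and TOP2A (-0.17, adjusted p = 0.0523) did not pass in limma.

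The 3 calls in RKO cells rested on all 6 libraries: 0 members passed when any 1 of them was left out. Without doxycycline replicate 1, 2 or 3, 0.154%, 0.109% and 0.00641% of all genes passed, and without untreated replicate 1, 2 or 3, 0.0192%, 0.00641% and 0.00641%. Of all genes, 118 fell and 60 rose with values as deposited, 67 and 59 with libraries scaled to equal sums, 59 and 72 after median centring, and 62 and 69 after quantile normalization. Under these 3 rescalings 35 of 38 members were negative, against 51%, 49.3% and 50.6% of all genes.

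In mouse colon, the replication genes showed no common direction with the loss of Zfp280c. The log2 fold change, knock-out minus wild-type, was negative in 18 and positive in 20 of the 38 members, with a median of 0.02 (all genes: 55.4% negative, median -0.02). In limma 0 members and 0 of 11366 genes passed, which is 0% in either direction. A single member, Prim1, reached an unadjusted p under 0.05, on the lower side, against 6.48% of all genes lower and 6.02% higher. Prim1 was also the only member whose groups did not overlap, against 9.79% of all genes lower and 7.13% higher.

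Before these results are read by group, 1 library has to be set apart. Proximal and distal HOX genes, which mark position along the gut, placed wild-type replicate 2 with the knock-outs. A position score, the mean log2 of proximal minus that of distal HOX genes, ran from 1.92 to 3.08 over the knock-outs. Wild-type replicate 2 scored 2.52, whereas replicates 1 and 3 of that group scored -1.60 and -4.04. Fits without wild-type replicate 2 thus set knock-outs of high score against wild-types of negative score only. In those fits genotype and position cannot be told apart. Zfp280c itself followed the labels, with 0.09, 0.09 and 0.22 FPKM where it was deleted against 2.48, 2.25 and 3.17 in the wild-types (5.06% of wild-type, -1.67 ± 0.14, adjusted p = 0.123, limma; exact two-sided permutation p = 0.1). FPKM is reads per length of transcript and library size, so levels of genes can be compared here, and read depth is unknown. Epithelial markers were high in every library (summed FPKM 9305 to 9962 in knock-out, 8486 to 10090.0 in wild-type, all 8 listed).

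The members ranged from 1.16 FPKM in Gins3 to 94.1 in Pcna as means over the 6 libraries, with a median of 6.40. Pcna was followed by Slbp (27.2), Mcm7 (17.9), Mcm6 (15.8) and Tyms (14.2). The MCM ring is built from one copy of each subunit, yet the means of Mcm7 and Mcm6 RNA stood above Mcm3 (9.24), Mcm5 (8.88), Mcm2 (8.86) and Mcm4 (7.96) FPKM. Mcm3, Mcm5 and Mcm2 differed by less than their SD within groups (1.18 to 2.80). At the low end, Clspn (1.20), Cdc6 (1.58) and Pola1 (1.77) stood close to Gins3. All 38 passed the filter of a mean of at least 1 FPKM.

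Libraries differed more than groups did. On the log2 scale the members' mean lay 0.17, -0.26 and 0.17 from the wild-type mean in knock-out replicates 1 to 3 and -0.07, 0.30 and -0.23 in wild-type replicates 1 to 3. Knock-out replicate 2 was the lowest knock-out library in 37 of 38 members, and wild-type replicate 2 was the highest wild-type library in 34 of 38. In 30 members wild-type replicates 1 and 3 both lay below knock-out replicates 1 and 3. The members thus moved together between libraries within each group, and their spread within groups was about as wide as the distance between single knock-out and wild-type libraries. G2 and mitosis genes moved with them in part: their mean was 0.52, 0.13 and 0.64 in the knock-outs and -0.02, 0.55 and -0.53 in the wild-types. For that list 24 of the 26 genes tested were positive (median 0.46), with Mki67 at 8.07, 5.28 and 8.54 against 5.05, 6.92 and 2.56 FPKM, while 0 passed in limma. Without wild-type replicate 2, 9 of these 26 were called higher (9.21% of all genes), and with the position score as a covariate 22 of 26 were negative (60.4% of all genes) and 0 passed.

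**Figure D4:**
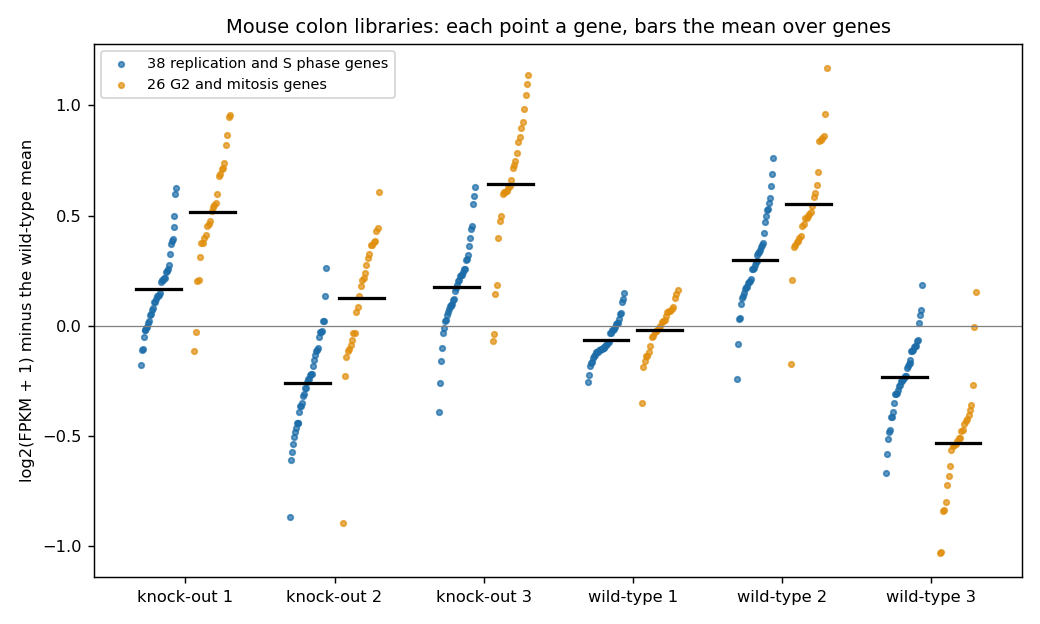
Log2(FPKM + 1) minus the wild-type mean in each mouse colon library, for the 38 members (blue points) and 26 G2 and mitosis genes (orange points), with the mean over genes as a bar. Knock-out 2 is lowest among the knock-outs for both lists and wild-type 2 highest among the wild-types.

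Other cell types in the tissue also differed between libraries. Lymphocyte markers summed to 7.56 to 19.0 FPKM in knock-out and 10.6 to 31.1 in wild-type colon (7 of 7 listed, none at 0 in all libraries). Germinal centre B cell markers, from another dividing population, summed to 3.42 to 4.10 and 3.92 to 6.81 (5 of 5). Smooth muscle markers summed to 253.5 to 413 and 170.1 to 338 (6 of 6), colon stem cell markers to 10.7 to 16.3 and 15.6 to 21.5 (6 of 6), and differentiated colonocyte markers to 10200 to 12920 and 5127 to 11060 (5 of 8). Adipocyte markers summed to 26.8 to 34.2 FPKM in knock-out and 1.7 to 21.0 in wild-type colon (4 of 4), so that these groups did not overlap. Fibroblast markers summed to 73.5 to 100.2 and 74.5 to 87.9 (6 of 6), and endothelial markers to 1.64 to 2.75 and 2.48 to 4.35 (4 of 4). Knock-out replicate 2, the lowest knock-out for the members, had the highest smooth muscle (413) and colonocyte (12920) sums and the lowest stem cell sum (10.7). Wild-type replicate 3, the lowest wild-type for the members, went the other way. It had the lowest colonocyte sum (5127) and the highest stem cell sum (21.5) of all libraries. The part of these cells in the members' values was not tested.

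By role, the licensing genes centred on 0 in colon (median 0.01, from -0.18 to 0.11), with Orc6, a small origin recognition subunit, at 7.46, 6.19 and 6.66 FPKM against 5.82, 7.43 and 5.87 (0.08 ± 0.12). Mcm5, a helicase subunit, stood at 9.19, 5.78 and 10.03 against 8.50, 11.5 and 8.28 (-0.18 ± 0.21). In both genes the groups overlapped. Helicase activation genes had a median of -0.05. Mcm10 stood at 4.10, 2.42 and 3.57 against 2.20, 3.95 and 1.41 (0.35 ± 0.29), and Cdc45 at 3.81, 3.35 and 3.49 against 3.77, 4.70 and 2.18 (0.04 ± 0.22). Gins4, a GINS subunit, differed from most members in that wild-type replicate 2 was its lowest wild-type library, at 8.66, 8.81 and 8.78 against 10.4, 8.25 and 11.4 (-0.17 ± 0.12).

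The fork genes had a median of 0.07. Prim1 stood at 7.97, 5.50 and 6.37 FPKM without Zfp280c against 8.45, 9.54 and 8.05 with it, so that all knock-out libraries were lower (76.2% of wild-type, -0.36 ± 0.14, adjusted p = 0.396, limma). The gap between the nearest libraries, 7.97 and 8.05, was narrower than the SD of either group (1.25 and 0.771, n = 3 each). Rfc3, a clamp loader subunit, stood at 11.58, 8.0 and 9.67 against 10.87, 13.62 and 10.99 (-0.26 ± 0.15), and Pola1 at 1.72, 1.13 and 1.91 against 2.25, 1.77 and 1.81 (-0.20 ± 0.16), both overlapping. Nucleotide synthesis had a median of 0.13 that covers unlike genes. Tk1 stood at 11.8, 8.10 and 11.8 against 6.76, 13.1 and 4.22 (0.46 ± 0.36) and Rrm2 at 7.33, 4.78 and 7.85 against 4.42, 8.14 and 3.13 (0.35 ± 0.31), whereas Tyms was nearly level at 14.9, 12.5 and 13.7 against 13.7, 15.1 and 15.6 (-0.10 ± 0.10). Wild-type replicate 2 was the highest of all libraries for both Tk1 and Rrm2, and replicate 3 the lowest. Without wild-type replicate 3 the log2 fold changes of Tk1, Rrm2 and Mcm10 were 0.13, 0.0964 and 0.11, and without wild-type replicate 2 they were 0.84, 0.67 and 0.63.

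Among the last roles, Ccne2 stood at 2.73, 2.27 and 2.78 FPKM against 2.29, 2.74 and 1.73 (0.15 ± 0.15) and E2f1 at 2.40, 2.17 and 2.35 against 2.17, 3.94 and 1.57 (-0.05 ± 0.24). E2f1 was nearly level over the knock-outs and uneven over the wild-types. Chaf1a lay at 0.06 ± 0.27, Slbp at -0.05 ± 0.13 and Ung at 0.15 ± 0.29, each with overlapping groups. Adjusted p for the members other than Prim1 ran from 0.461 to 0.995 in limma.

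Without wild-type replicate 2 the balance of signs changed. In that fit every knock-out had a high position score and every wild-type a negative one, so genotype and position cannot be told apart. Of the 38 members 29 were then positive and 9 negative (all genes: 52.7% negative), with a median of 0.17, and Tk1 (0.84, adjusted p = 0.0479, limma) and Pola2 (0.74, adjusted p = 0.0314, limma) were called higher. Pola2, a subunit of the polymerase alpha complex named here after its values were seen, stood at 8.47, 7.69 and 9.63 FPKM against 5.75, 10.7 and 3.83 in the 3 wild-types. These 2 of 38 compare with 9.21% of 11344 genes called higher and 7.19% called lower in that fit, so the members' share was below that of all genes. With the position score as a covariate the direction turned: 37 members were negative (60.4% of all genes), with a median of -0.27, and 0 were called in limma (0% of all genes). There 7 members were lower at an unadjusted p under 0.05, against 2.25% of all genes, all at adjusted p = 0.994. With that covariate, group differences rest largely on wild-type replicate 2, the only wild-type library with a score like those of the knock-outs.

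**Figure D5:**
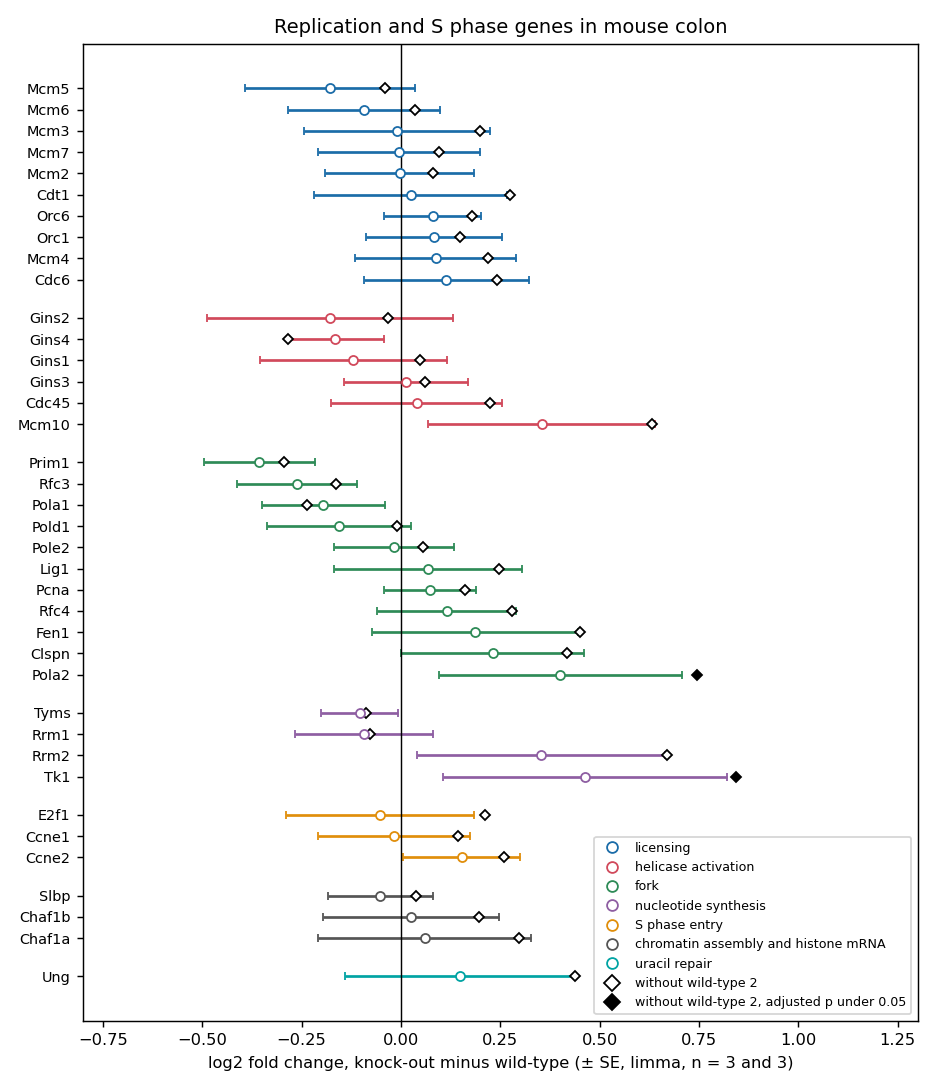
Log2 fold change in mouse colon, knock-out minus wild-type, for the 38 members by role (circles with SE bars, limma, n = 3 and 3) and the same without wild-type replicate 2 (diamonds, filled where adjusted p is under 0.05). Values spread on both sides of 0, and without wild-type replicate 2 most lie above it, with Tk1 and Pola2 filled.

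Of the other pathway genes, 76 of 85 were tested in colon, 40 were negative (median -0.01; all genes 55.4% negative) and none was called by limma (0% of all genes). At an unadjusted p under 0.05, Paics (-0.47) and Umps (-0.40), enzymes of purine and pyrimidine synthesis, were lower, and Samhd1 (0.37), which breaks down deoxynucleotides, and Cdkn1b (0.24), an inhibitor of cyclin kinases, were higher (adjusted p = 0.396 for each, limma). These are 2 each of 76, against 6.48% of all genes lower and 6.02% higher, so the share was below that of all genes. Cdc7 (0.40), Pold4 (0.22), Asf1a (-0.22) and Mcmbp (-0.18) had the lowest p of their roles. Without wild-type replicate 2, Cdc7 (0.67, adjusted p = 0.0151) and Cdc25a (0.38, adjusted p = 0.0378) were called higher, and Umps (-0.55, adjusted p = 0.0315) and Paics (-0.61, adjusted p = 0.0436) lower in limma, 2 each of 76, against 9.21% and 7.19% of all genes. Cdc25a was named after its values were seen. Ticrr, Recql4, Traip, Chtf18 and E2f7 lay below the minimum mean, and the table has no entry named Dbf4b, Kiaa0101, Pclaf or Ctps1.

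Side by side, the members called in RKO cells were not called in mouse colon: CDC45 lay at -0.27 ± 0.05 in RKO and Cdc45 at 0.04 ± 0.22 in colon, POLA1 at -0.26 ± 0.05 and Pola1 at -0.20 ± 0.16, and TYMS at -0.24 ± 0.04 and Tyms at -0.10 ± 0.10. Standard errors in colon were wider, so a difference of the size seen in RKO cells was not detectable for most members there. In all, 17 members were negative in both tables, 20 were negative in RKO and positive in colon, and CCNE1 was positive in RKO and negative in colon. The 2 tables were normalized separately, and the difference between them was not tested.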

How the data were processed

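Polyadenylated RNA was sequenced from 6 RKO and 6 mouse colon libraries. Tools named by the submitters' processing notes are HISAT, Bowtie2, HTSeq and edgeR. Those notes list hg19 as the only build and give neither tool versions nor their order. The deposited RKO values are called signal here: by its name the table holds FPKM adjusted by the authors for batch with ComBat, but each column sums to over 9050160, so the values lie on the scale of normalized read counts. The batches and the model are not given in the sources used here. Per the file headers, the deposited mouse values are FPKM, given to 2 decimals. Depth is unknown for both, so no counting interval is given. The test had been planned for FPKM and was kept for the signal values.

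Each table was fitted alone with limma 3.58.1 (R 4.3.3, trend) on log2(value + 1) for genes whose mean reached 1, so fold changes of low genes are understated. Benjamini-Hochberg adjustment ran over all genes tested, and a gene was called at an adjusted p under 0.05. The script was tested on simulated data. Same-numbered libraries did not deviate together (correlations -0.531 to 0.081 in RKO, -0.453 to 0.151 in colon), and the main fit took no pairs. In RKO the 2 pairs of libraries with equal values deviated in opposite directions (-0.531 and -0.336). By name these values were already adjusted for batch, so the correlations cannot show whether RKO libraries were made in pairs or batches. If they were, p-values of the fit without a block do not take it into account. GC content was that of a gene's longest GENCODE transcript, for 13118 RKO genes (84.1%), and its trend was removed per library by lowess (span 0.3). Promoters came from RefSeq GRCh38.p14, and several members have more than 1 listed start.

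The members, the other lists and the alternatives were chosen with earlier results of these data known. Named in RKO were the members called, the 3 with the lowest p in each role (all in roles of 4 or fewer) and those with the opposite sign. Other members, among them MCM6, POLA2, POLE2 and CDT1, were singled out after their values were seen. Named in colon were the same-named genes of the RKO calls and the 2 with the lowest p in each role. Of the other pathway genes, those called and the 1 with the lowest p in each role were named. Alternatives were other pseudocounts (0.1 and 5), other minimum means (none and 10), 3 rescalings, robust variance, a replicate block, a block of libraries with equal values, GC correction, the position score and leaving out each library.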

Additional observations from a re-analysis of the deposited data

How the results depend on the processing

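The member median in RKO cells stayed negative in every setting run, from -0.154 to -0.114 in the fits that left out 1 library. The calls did not stay. Leaving out 1 library gave 1 to 24 genes called and 0 members in each fit in limma. ZNF280C then lay between -1.13 and -0.82 and passed only without doxycycline replicate 1 (adjusted p = 0.0294). It did not pass without doxycycline replicate 2 (0.0621) or 3 (0.0633), or untreated replicate 1 (0.0733), 2 (0.0892) or 3 (0.0922). Blocking on libraries with equal values gave 0 genes, 0 members and an adjusted p of 0.0769 for ZNF280C, at -0.98. With the GC trend removed 88 genes were called, 58 lower and 30 higher. The replicate number as a block left 1 gene and 0 members called, with ZNF280C at -0.98 (adjusted p = 0.0991, limma), and 2 genes and 0 members with the GC trend also removed, with ZNF280C at -0.90 (adjusted p = 0.134). In colon the replicate block called 0 genes and 0 members, as without it. UNG, at -0.0012, turned to 0.0021 with the GC trend removed, with or without the replicate block, to 0.0088 with equal sums, to 0.0121 and 0.0197 with median centring and quantile normalization, and to 0.0288, 0.0243 and 0.0427 without doxycycline replicate 1 or 3 or untreated replicate 1 (from -0.0568 to 0.0427 over the fits that left out 1 library).

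In colon the member median, 0.02, turned to -0.0728 over the 6 members with a mean of at least 10, to -0.27 with the position score, and ran from -0.0739 to 0.17 over the fits that left out 1 library. It was negative without knock-out replicate 1 (-0.0529) or 3 (-0.0739) and without wild-type replicate 1 (-0.0238) or 3 (-0.0631). Without wild-type replicate 2, 1861 genes and 2 members were called, and Zfp280c passed (-1.75, adjusted p = 0.00205, limma). Genotype and position score coincide in that fit, and their parts in these calls cannot be told apart. With the position score the sign turned in Orc6 (-0.11), Mcm10 (-0.23), Cdc45 (-0.39), Gins4 (0.0598), Rrm2 (-0.29), Tk1 (-0.31), Ccne2 (-0.0899), Chaf1a (-0.40) and Ung (-0.43). Without knock-out replicate 1, Cdc45 stood at -0.0008. Without knock-out replicate 2, Mcm5 stood at 0.0368 and Slbp at 0.0335. Chaf1a stood at -0.11 without knock-out replicate 3, at -0.0213 without wild-type replicate 1 and at -0.0945 without wild-type replicate 3, where Cdc45 stood at -0.20 and Ung at -0.0577. Without wild-type replicate 2, E2f1 stood at 0.21 and Slbp at 0.0366. Over the fits that left out 1 library, Cdc45 ran from -0.20 to 0.22, Mcm5 from -0.31 to 0.0368, E2f1 from -0.26 to 0.21, Chaf1a from -0.11 to 0.30, Slbp from -0.17 to 0.0366, Ung from -0.0577 to 0.44 and Zfp280c from -1.75 to -1.57. Fewer libraries were tested in these fits, and the cause of the other changes was not tested. Unknown read depth limits what can be said of the low colon values, such as Gins3 and Clspn.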
